A study of Mus musculus with 12 samples.

Results

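The genes described here are the protein-coding mouse genes whose symbols name a Ccl or Cxcl ligand, a Ccr or Cxcr receptor, or Cx3cl1 and its receptor Cx3cr1. The 52 reported here are 36 ligand genes and 16 receptor genes, among 55401 gene identifiers in the culture tables and 51826 in the forelimb table. Symbols and positions came from GENCODE M21 on GRCm38. Cxcl11 met the symbol pattern but is annotated as a polymorphic pseudogene, and it was left out together with 2 Ccl19 pseudogenes.

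Chemokines are small secreted proteins that guide the movement of leukocytes, and they act through G protein-coupled receptors on the cells they attract. In bone marrow cultures they are made by macrophages and stromal cells, and the osteoclast lineage is known both to secrete CC chemokines and to carry CC receptors. Ligands and receptors pair loosely, so that several ligands share 1 receptor and a ligand can use more than 1.

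RNA was sequenced in 12 libraries, 2 per group, from mice in which Impdh2, encoding an IMP dehydrogenase of guanine nucleotide synthesis, was intact (Wt) or conditionally deleted. The 8 culture libraries came from marrow of Wt mice and of Impdh2 LysM-cKO mice, LysM being a promoter active in the myeloid lineage, and each genotype was sampled as R0D3 and as R40D3. Per the labels' protocols, marrow was grown for 3 days with L929 supernatant as a source of M-CSF, equal to 20 ng/ml, reseeded, and stimulated with RANKL, the osteoclast-inducing cytokine, at 40 ng/ml. All 8 carry the same treatment label, so R0D3 and R40D3 are used as names and the reading of R40 and R0 as RANKL doses is an inference. The 4 forelimb libraries came from Wt and Impdh2 Prx-cKO embryos at E12.5, Prx being a promoter active in limb mesenchymal progenitors. The labels give no animal age or sex for the cultures, and they do not say whether replicates are separate animals or cultures, so the p-values measure the spread between these samples, which may be technical.

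Total counts ran from 16009146 to 19221865 in the cultures and from 28892215 to 69466572 in the forelimbs. Impdh2, in CPM (reads scaled to library size with TMM factors, as for all levels here), was 22.3 to 28.2 in the Wt culture libraries and 7.03 to 8.38 in the LysM-cKO libraries. In the forelimbs it was 260.4 and 272 in Wt and 169.7 and 199 in Prx-cKO. All 10 osteoclast marker genes rose in R40D3 in both genotypes, and their summed level was 325 to 471 CPM in the 4 R0D3 libraries and 13190 to 38760 CPM in the 4 R40D3 libraries, while 8 macrophage markers summed to 7256 to 8826 CPM in all 8. Dendritic cell markers summed to 69.6 to 114 CPM in R0D3 and 25.5 to 35.3 CPM in R40D3 over both genotypes, and B cell markers to 38.7 and 42.9 CPM in Wt R0D3 and 18.9 and 15.3 CPM in Wt R40D3. In LysM-cKO the B cell sums were 40.2 and 45.2 CPM in R0D3 and 32.3 and 30.5 CPM in R40D3. The part of these cells in the chemokine results was not tested. T cell and NK cell markers were near 0 in the cultures, at most 2.08 and 0.305 CPM in sum. The summed stromal fibroblast markers were 603 and 509.9 CPM in the 2 LysM-cKO replicate 2 libraries, against 1450.0 to 1880 CPM in the other 6. Results that use those 2 libraries are therefore also given without them where the call changes. Cycling cell markers summed to 717 CPM (R0D3) and 381 CPM (R40D3) in those 2 libraries and to 305 and 195 CPM in LysM-cKO replicate 1. In the Wt libraries they summed to 141.5 to 300 CPM. The part of cycling cells in the chemokine results was not tested.

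Not all 52 genes could be tested. In the cultures 26 passed the filter on low counts, 19 ligands and 7 receptors. A further 16 had reads but fell below the filter, and 10 had no read in any culture library: Ccl1, Ccl11, Ccl19, Ccl21a, Ccl21b, Ccl27b, Ccr8, Cxcl13, Cxcl15 and Cxcl17. A level of at least 5 CPM in the mean of a group was reached by 15 genes, 9 ligands and 6 receptors. Per kilobase of exon, the highest mean levels in Wt R0D3 were those of Ccl6 (289 CPM per kb), Ccl3 (114), Cxcr4 (102) and Ccl9 (91.4). In Wt R40D3 they were those of Ccl9 (222), Ccl6 (146) and Ccr1 (122).

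**Figure D1:**
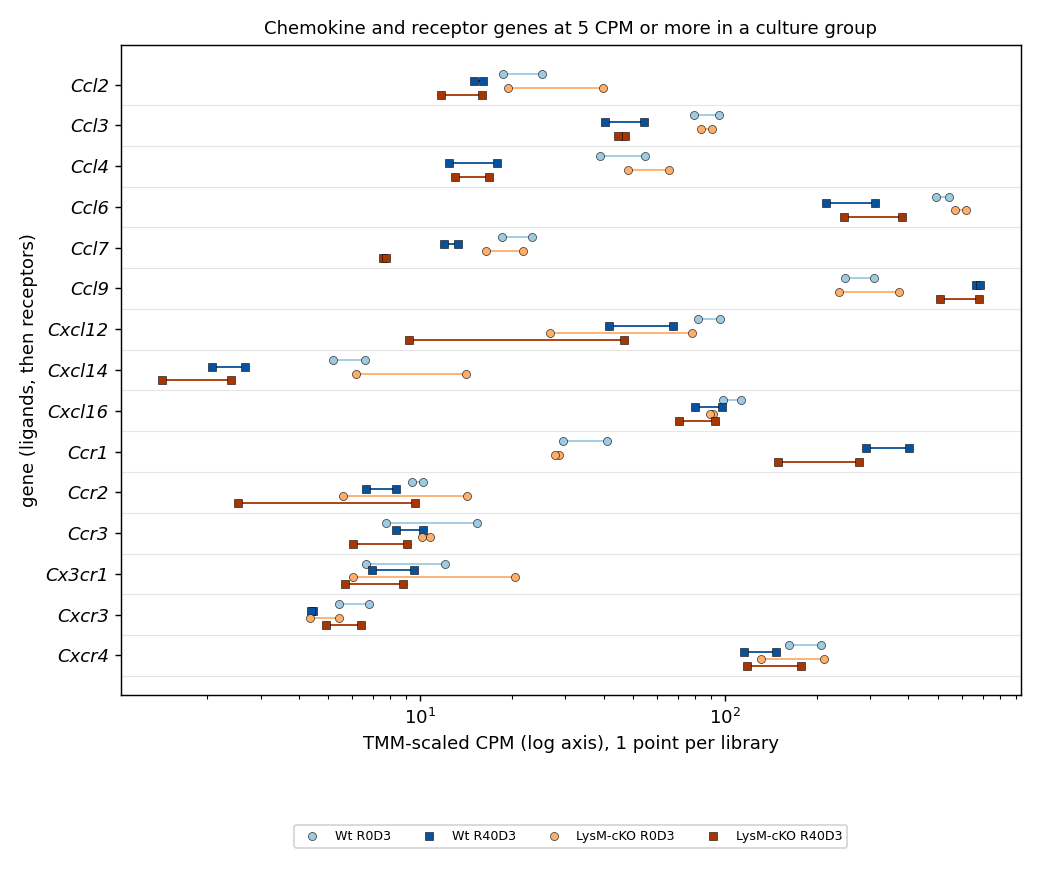
TMM-scaled CPM on a log axis for the 15 genes that reached 5 CPM in a culture group, with 1 point for each of the 8 libraries and a line joining the 2 libraries of a group (light circles R0D3, dark squares R40D3, blue Wt, orange to brown LysM-cKO). Ccr1 and Ccl9 lie to the right in all 4 R40D3 libraries, Ccl3, Ccl4, Ccl6, Ccl7 and Cxcl14 lie to the left, and Cxcl12 is spread widely within LysM-cKO.

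The comparison of R40D3 with R0D3 asks which chemokine genes differ between osteoclast-forming and unstimulated cultures, if the names are read as doses. In both genotypes the receptor gene Ccr1 rose, most of the ligand genes that passed fell, and 2 adjacent ligand genes moved in opposite directions. In Wt, edgeR called 6 of the 26 tested genes at an adjusted p under 0.05, 2 higher and 4 lower. Of all 14030 genes tested, 16.9% were called, 11.4% higher and 5.52% lower. In LysM-cKO it called 7 of 26, 2 higher and 5 lower, where 10.1% of all genes were called, 6.99% higher and 3.15% lower. The median log2 fold change over the 26 genes was -0.37 in Wt and -0.49 in LysM-cKO. Over all genes it was 0.01 in both. The LysM-cKO median hinged on single libraries. It moved to 0.06 (28 genes tested) when R0D3 replicate 1 was dropped. Dropping R40D3 replicate 2 instead left it at -0.08 (27 genes tested). The fits lacking R0D3 replicate 2 or R40D3 replicate 1 gave -0.33 and -0.46. This median therefore supports no direction for the set in LysM-cKO. In Wt the median ran from -0.68 to -0.22 as single libraries were left out. All 6 genes called in Wt were called in the same direction in LysM-cKO, which is 100% of the first list and 85.7% of the second. Over all genes tested the shared calls were 54% of those in Wt and 89.9% of those in LysM-cKO. With the replicate block 9 genes were called in Wt and 8 in LysM-cKO, where 28.3% and 21.3% of all genes were, and with DESeq2 7 and 8, where 16.9% and 11.7% were. The Wt and LysM-cKO comparisons share no libraries, but they share 1 estimate of the spread.

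Ccr1, a receptor for Ccl3, Ccl5, Ccl6 and Ccl9, gave the highest rise. It was at 41.0 and 29.5 CPM in the Wt R0D3 libraries and at 289 and 402 CPM in Wt R40D3. In LysM-cKO it was at 28.5 and 27.7 CPM in R0D3 and at 149 and 275 CPM in R40D3. Every R40D3 library was above every R0D3 library. Ccr1 rose 9.79-fold in Wt, a log2 fold change of 3.29 with SE 0.32 (edgeR adjusted p = 0.0010), and the value was 2.92 (SE 0.32, edgeR adjusted p = 0.0026) in LysM-cKO, a 7.54-fold rise. Both calls held in every alternative run, 11 for Wt and 12 for LysM-cKO. The osteoclast marker sum moved with it, from 471 and 352 CPM to 26290 and 38760 CPM in Wt and from 415 and 325 CPM to 13190 and 24830 CPM in LysM-cKO, and its part in the result was not tested. In such bulk libraries, fewer cells of a type and less RNA per cell cannot be told apart.

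None of the other receptors described here passed with edgeR without the replicate block. Cxcr4, the receptor of Cxcl12, was at 206 and 162 CPM in Wt R0D3 and at 147 and 115.5 CPM in Wt R40D3. The 2 groups did not overlap, yet the log2 fold change of -0.49 (SE 0.27) had an edgeR adjusted p of 0.286. With the replicate number as a block it was called (-0.49, SE 0.09, adjusted p = 0.0053 with edgeR). The differences within replicates 1 and 2 were -0.49 and -0.48 on the log2(CPM + 0.5) scale. In LysM-cKO, Cxcr4 was at 211 and 131.5 CPM in R0D3 and at 177 and 118 CPM in R40D3, and these overlapped. Ccr2, the receptor of Ccl2 and Ccl7 on monocytes, was between 6.66 and 10.2 CPM in Wt and between 2.54 and 14.2 CPM in LysM-cKO, with R0D3 and R40D3 overlapping in LysM-cKO. Ccr3, Cx3cr1 and Cxcr3 were between 4.37 and 20.4 CPM in all 8 libraries and passed in neither genotype. Summed over the 16 receptor genes, the level was 229.8 to 289 CPM in Wt R0D3 and 473 to 547 CPM in Wt R40D3, against 209 to 269.9 CPM and 352 to 428 CPM in LysM-cKO.

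Among the ligands, Ccl9, a CC chemokine that acts through Ccr1, rose. It was at 248 and 309 CPM in Wt R0D3 and at 664.5 and 685 CPM in Wt R40D3. In LysM-cKO it was at 236 and 373 CPM in R0D3 and at 509.6 and 681 CPM in R40D3. The groups did not overlap in either genotype. Its log2 fold change was 1.28 (SE 0.24, edgeR adjusted p = 0.011) in Wt and 0.97 (SE 0.23, edgeR adjusted p = 0.042) in LysM-cKO.

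Ccl6, a close relative that also acts through Ccr1, fell. It was at 544.5 and 492 CPM in Wt R0D3 and at 311 and 214 CPM in Wt R40D3. The LysM-cKO levels were 619 and 570.4 CPM in R0D3 and 381 and 245 CPM in R40D3. Each R40D3 library was below each R0D3 library. The log2 fold change was -0.98 (SE 0.24, edgeR adjusted p = 0.028) in Wt and -0.92 (SE 0.23, edgeR adjusted p = 0.049) in LysM-cKO. The Wt calls of Ccl9 and Ccl6 were lost without Wt R0D3 replicate 1, Wt R0D3 replicate 2 or Wt R40D3 replicate 2, with edgeR adjusted p up to 0.095 for Ccl9 and 0.14 for Ccl6. In LysM-cKO, Ccl9 was lost without R0D3 replicate 1 or R40D3 replicate 2 (up to 0.20) and in a fit of only those 4 libraries (0.11). The LysM-cKO call of Ccl6 held in 5 of 12 alternatives, with edgeR adjusted p up to 0.23 in the others.

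Ccl3 and Ccl4, the macrophage inflammatory proteins, fell in both genotypes. Ccl4 was at 54.7 and 38.8 CPM in Wt R0D3 and at 17.9 and 12.46 CPM in Wt R40D3. In LysM-cKO, Ccl4 was at 48.2 and 65.8 CPM in R0D3 and at 13.1 and 16.8 CPM in R40D3. Its log2 fold change was -1.62 (SE 0.26, edgeR adjusted p = 0.0061) in Wt and -1.93 (SE 0.26, edgeR adjusted p = 0.0053) in LysM-cKO. Ccl3 was at 95.7 and 79.2 CPM in Wt R0D3 and at 54.2 and 40.5 CPM in Wt R40D3. In LysM-cKO, Ccl3 was at 83.6 and 90.5 CPM in R0D3 and at 47.0 and 44.6 CPM in R40D3. For both genes all 4 R40D3 libraries were below all 4 R0D3 libraries. The log2 fold change of Ccl3 was -0.88 (SE 0.15, edgeR adjusted p = 0.0085) in Wt and -0.93 (SE 0.15, edgeR adjusted p = 0.012) in LysM-cKO. In Wt, Ccl4 was lost without R40D3 replicate 2 (edgeR adjusted p = 0.051) and Ccl3 without R0D3 replicate 1 (0.069). In LysM-cKO, Ccl3 was lost without either replicate 2 library (up to 0.069) and without both (0.12). Ccl5, a ligand of Ccr1, was between 0.554 and 2.04 CPM in all 8 libraries and passed in neither genotype.

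Ccl7, a monocyte chemoattractant that acts through Ccr2, fell in both genotypes. It was at 18.6 and 23.3 CPM in Wt R0D3 and at 13.3 and 12.03 CPM in Wt R40D3. In LysM-cKO it was at 16.4 and 21.7 CPM in R0D3 and at 7.56 and 7.76 CPM in R40D3. The groups did not overlap, and the 2 LysM-cKO R40D3 libraries were the lowest. For Ccl7 the log2 fold change was -0.72 (SE 0.18, edgeR adjusted p = 0.031) in Wt and -1.31 (SE 0.19, edgeR adjusted p = 0.0068) in LysM-cKO. The Wt call was lost when any 1 of the 4 Wt libraries was left out, with edgeR adjusted p of 0.064 to 0.19, and the LysM-cKO call was lost only without both replicate 2 libraries (0.066).

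Ccl2, the main monocyte chemoattractant and the neighbour of Ccl7, was at 18.7 and 25.2 CPM in Wt R0D3 and at 16.1 and 15.1 CPM in Wt R40D3. In LysM-cKO it was at 19.4 and 39.8 CPM in R0D3 and at 11.7 and 16.02 CPM in R40D3. The libraries did not overlap within either genotype, but neither comparison passed. In LysM-cKO the log2 fold change was -1.095 (SE 0.33) with an edgeR adjusted p of 0.087, and it was called with the replicate block (-1.06, edgeR adjusted p = 0.010) and by DESeq2 (-1.11, adjusted p = 0.0098). Without LysM-cKO R0D3 replicate 2, the highest library, the value was -0.49, and without LysM-cKO R0D3 replicate 1 it was called (-1.53, edgeR adjusted p = 0.019).

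Cxcl14, a CXC chemokine made mostly by epithelia and stroma, was at 5.18 and 6.59 CPM in Wt R0D3 and at 2.67 and 2.08 CPM in Wt R40D3. LysM-cKO libraries held 6.15 and 14.2 CPM in R0D3 and 1.43 and 2.40 CPM in R40D3. The R40D3 libraries were all low. It fell in LysM-cKO by 2.42 on the log2 scale (SE 0.47, edgeR adjusted p = 0.020). In Wt the log2 fold change was -1.30 (SE 0.48, edgeR adjusted p = 0.11). In Wt it was called with the replicate block (-1.27, edgeR adjusted p = 0.027) and by DESeq2 (-1.33, adjusted p = 0.039). The LysM-cKO value was -1.70 without R0D3 replicate 2, and the call was lost there, without either R40D3 library, and with only the 4 libraries compared, with edgeR adjusted p up to 0.075.

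The remaining ligands passed in neither genotype under edgeR without the block. Cxcl16, a membrane-bound scavenger chemokine, was at 70.8 to 113 CPM in all 8 libraries, and its exons overlap those of Zmynd15. Cxcl12, the stromal ligand of Cxcr4, was at 96.6 and 81.9 CPM in Wt R0D3 and at 67.6 and 41.7 CPM in Wt R40D3. In LysM-cKO, Cxcl12 was at 77.8 and 26.7 CPM in R0D3 and at 46.7 and 9.18 CPM in R40D3. The replicate 2 library was the lower in all 4 groups, most so in LysM-cKO, where the stromal fibroblast markers were also low in replicate 2 (603 and 509.9 CPM, against 1827 and 1691 in replicate 1). In Wt those markers summed to 1615 and 1450.0 CPM in R0D3 and to 1880 and 1821 CPM in R40D3, opposite in order to Cxcl12. The part of stromal fibroblasts in the Cxcl12 values was not tested. Cxcl2, a neutrophil chemoattractant, was at 1.75 and 4.42 CPM in Wt R0D3 and at 0.784 and 1.04 CPM in Wt R40D3. These did not overlap, and Cxcl2 was called only with the replicate block (-1.70 on the log2 scale, SE 0.37, edgeR adjusted p = 0.0091). Without the block the value was -1.75 (edgeR adjusted p = 0.17), and it was -0.95 (0.63) without Wt R0D3 replicate 2. The LysM-cKO libraries of Cxcl2 overlapped between R0D3 and R40D3. Its receptor Cxcr2 was at 3.79 and 4.24 CPM in Wt replicate 1 and at 0.995 and 0.305 CPM in Wt replicate 2, in R0D3 and R40D3 respectively. In Wt the summed neutrophil markers stood in the same order, with 428 and 547 CPM in replicate 1 and 165 and 126 CPM in replicate 2. In LysM-cKO replicate 1, Cxcr2 was at 1.55 CPM in R0D3 and 3.28 CPM in R40D3 while those markers were at 221.5 and 199.5 CPM, and in replicate 2 it was at 0.849 and 0.863 CPM with the markers at 118 and 89.0 CPM.

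The other ligands that were tested stayed at low levels. Cxcl1, a neutrophil chemoattractant like Cxcl2, was at 1.11 and 1.49 CPM in Wt R0D3 and at 0.575 and 0.366 CPM in Wt R40D3, without overlap, but had an edgeR adjusted p of 0.19. Only in Wt R0D3 did both libraries reach the filter's minimum of 0.589 CPM before TMM scaling, and neither Wt R40D3 library did. Its order therefore supports no direction. Ccl24, a ligand of Ccr3, was between 1.79 and 4.03 CPM, and Ccl12, a further ligand of Ccr2, was between 0.616 and 1.74 CPM in all 8 libraries. Cx3cl1, Ccl25 and Ccl27a were between 1.152 and 5.24 CPM, of which Ccl25 reached the top value in LysM-cKO R40D3 replicate 2. Ccl25 was higher in R40D3 than in R0D3 without overlap in both genotypes, with edgeR adjusted p of 0.38 in Wt and 0.34 in LysM-cKO, and its exons overlap those of Elavl1. The other 4 of these genes overlapped between R0D3 and R40D3 in at least 1 genotype. Several partners of these genes were below the filter: Cxcr6, the receptor of Cxcl16, was at no more than 0.466 CPM, Ccr9, the receptor of Ccl25, at no more than 0.575 CPM, and Ccr10, the receptor of Ccl27a, at no more than 0.370 CPM. Ccr7, which guides dendritic cells to lymph nodes, was at no more than 0.175 CPM in the cultures, where its ligands Ccl19 and Ccl21a had no read.

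**Figure D2:**
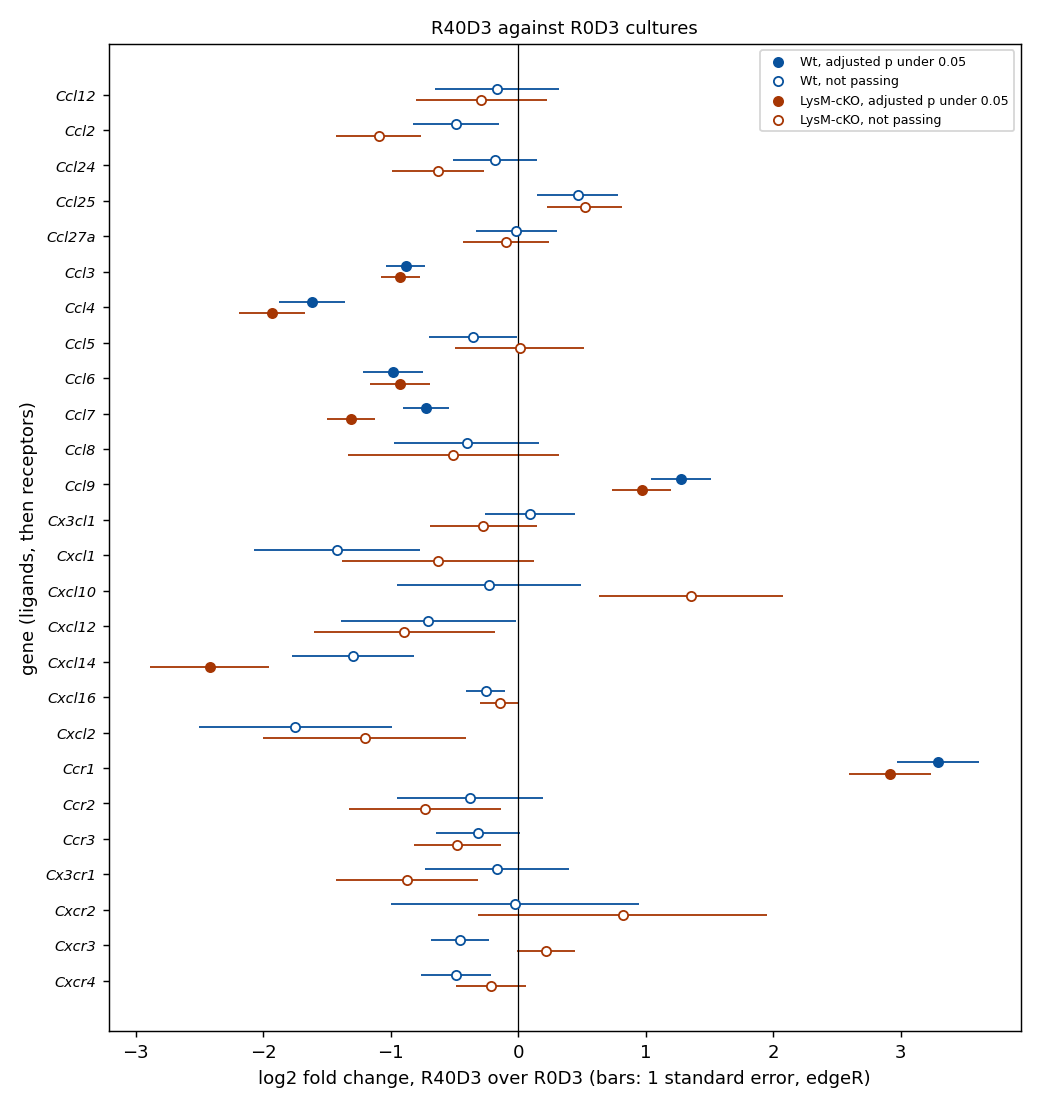
Log2 fold change of R40D3 over R0D3 for each of the 26 tested genes in Wt (blue) and LysM-cKO (brown), with bars of 1 standard error from edgeR and filled points for an adjusted p under 0.05. The filled points of Ccr1 and Ccl9 lie right of 0 and those of Ccl4, Ccl3, Ccl6 and Ccl7 left of 0 in both genotypes, and Cxcl14 is filled in LysM-cKO only.

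The positions of these genes set the opposite movements side by side. On chromosome 11, Ccl9 (83572919-83578636, minus strand) and Ccl6 (83587882-83593087, minus strand) are separated by 9.2 kb, and 1 rose while the other fell. Ccl3 and Ccl4 are 13.2 kb apart, and both fell. Ccl2 and Ccl7 are 8.3 kb apart and had log2 fold changes of -0.49 and -0.72 in Wt, of which only that of Ccl7 passed. On chromosome 9, Ccr1 (123962124-123968692, minus strand) is followed by Ccr3 after 53.3 kb and Ccr2 after a further 70.3 kb. Ccr1 rose, while Ccr3 and Ccr2 had log2 fold changes of -0.32 and -0.38 in Wt, neither of which passed.

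The 250 bases before the RefSeq start of Ccl9, Ccl6 and Ccr1 (RefSeq, GRCm38.p6) are shown because the first 2 genes are neighbours that moved oppositely and the third rose most. All lie on the minus strand, at chr11:83578637-83578886 for Ccl9, chr11:83593088-83593337 for Ccl6 and chr9:123968693-123968942 for Ccr1. Capitals mark matches, on either strand, to 5 short motifs chosen after the sequences were seen.
Ccl9: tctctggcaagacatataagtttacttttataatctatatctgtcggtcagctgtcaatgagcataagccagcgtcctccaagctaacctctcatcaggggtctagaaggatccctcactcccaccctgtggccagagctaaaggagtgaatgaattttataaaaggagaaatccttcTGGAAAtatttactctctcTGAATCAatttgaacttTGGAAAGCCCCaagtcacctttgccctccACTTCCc
Ccl6: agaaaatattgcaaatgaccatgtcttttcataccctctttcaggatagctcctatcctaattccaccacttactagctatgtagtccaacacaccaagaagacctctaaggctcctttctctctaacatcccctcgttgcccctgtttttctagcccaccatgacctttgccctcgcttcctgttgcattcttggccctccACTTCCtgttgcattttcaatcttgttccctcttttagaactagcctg
Ccr1: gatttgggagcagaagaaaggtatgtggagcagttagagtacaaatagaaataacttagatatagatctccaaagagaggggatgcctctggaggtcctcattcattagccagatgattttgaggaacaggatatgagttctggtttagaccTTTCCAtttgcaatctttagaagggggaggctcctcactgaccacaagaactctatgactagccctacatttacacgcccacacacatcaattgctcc
The motifs were the ETS core GGAAGT, the NFAT core TGGAAA, the AP-1 motif TGANTCA, the NF-kappaB motif GGGNN followed directly by TTTCC, and the E-box CACGTG, where N is any base. The Ccl9 window held 5 matches: 2 NFAT cores starting 72 and 36 bases before the start, 1 AP-1 motif, 1 NF-kappaB motif that overlaps the second NFAT core, and 1 ETS core. The Ccl6 window held 1 ETS core, and the Ccr1 window held 1 NFAT core, 98 bases before the start. Windows not shown were searched in the same way for Cxcl2, Ccl3, Cxcr4 and Cxcl14, which had lower mean levels in R40D3. Of these, Cxcr4 and Cxcl2 were called only with the replicate block and only in Wt. Ccl4, Ccl7 and Ccl2 had no promoter sequence in the set searched. That of Cxcl2 held an NFAT core 73 bases before the start and NF-kappaB motifs 97 and 78 bases before it. The Ccl3 window held 1 ETS core, and those of Cxcr4 and Cxcl14 held 0 matches. Of 32851 RefSeq promoter windows of this length, 19.7% held the ETS core, 18.6% the NFAT core, 6.75% the AP-1 motif, 1.41% the NF-kappaB motif and 6.02% the E-box. A match is a description of letters only.

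Genes that act around the receptors moved as follows in the same fits. Of 11 atypical receptors and chemokines outside the symbol rule, 5 were tested. In Wt, Mif, a macrophage migration inhibitory factor that binds chemokine receptors, rose (log2 fold change 0.67, edgeR adjusted p = 0.019) and Ccrl2, a chemerin-binding atypical receptor, fell (-1.04, adjusted p = 0.018). In LysM-cKO none of the 5 passed. With the replicate block, where 21.3% of all genes were called, Mif was called higher there and Pf4 and Ccrl2 lower. Pf4, platelet factor 4 and by family a CXC chemokine, was at 266 and 227 CPM in LysM-cKO R0D3 and at 152 and 91.7 CPM in LysM-cKO R40D3, without overlap (-1.01 on the log2 scale, edgeR adjusted p = 0.071). Cmklr1, the chemerin receptor, was between 75.8 and 156 CPM in all 8 libraries and did not pass. Ackr3 was at no more than 0.460 CPM in the cultures.

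Of 37 genes of receptor signalling and cell migration, all were tested. In Wt, 4 rose and 6 fell, and in LysM-cKO 4 rose and 3 fell, where 16.9% and 10.1% of all genes were called. The same 4 rose in both: Grk3, a kinase that desensitises G protein-coupled receptors, Plcb2, a phospholipase C downstream of them, Rac2 and Prex1. Grk3 was at 7.75 and 6.78 CPM in Wt R0D3 and at 214 and 291 CPM in Wt R40D3, with log2 fold changes of 5.12 (edgeR adjusted p = 0.00024) in Wt and 5.01 (adjusted p = 0.00040) in LysM-cKO. Of the RGS proteins, which shorten G protein signals, Rgs1, Rgs2 and Rgs18 fell in both. Rgs1 was at 80.2 and 110.1 CPM in Wt R0D3 and at 15.2 and 21.3 CPM in Wt R40D3, with log2 fold changes of -2.38 (edgeR adjusted p = 0.011) in Wt and -2.63 (adjusted p = 0.012) in LysM-cKO. Rgs18 and Rgs2 had log2 fold changes of -1.14 and -0.97 in Wt. Plcb2 rose by 2.09 on the log2 scale in Wt and by 1.64 in LysM-cKO, and Rac2, a GTPase of blood cell motility, by 1.45 and 1.13. Arrb2, Dock2 and Pik3cg also fell in Wt, by 0.51, 0.54 and 0.43 on the log2 scale. With the replicate block the signalling list had 4 higher and 9 lower in Wt, and 4 higher and 7 lower in LysM-cKO, where 28.3% and 21.3% of all genes were called.

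A list of 30 genes linked to the induction of chemokine genes held cytokines, Toll-like receptors, signalling genes and transcription factors. It also held the inhibitor Nfkbia, and 27 of the 30 were tested. Against the same shares of all genes, 6 rose and 3 fell in Wt, and 6 rose and 2 fell in LysM-cKO. The same 6 rose in both: Nfatc1, the master regulator of osteoclast formation, Fosl2, Nfkb2, Relb, Nfkbia and Bcl3. Nfatc1, which is also among the osteoclast markers, had log2 fold changes of 2.42 (edgeR adjusted p = 0.00026) in Wt and 2.06 (adjusted p = 0.00073) in LysM-cKO. Fosl2, an AP-1 subunit, rose by 3.46 on the log2 scale in Wt and by 2.90 in LysM-cKO, and Nfkbia, an inhibitor of NF-kappaB, by 2.19 and 1.83. Nfkb2 and Relb, subunits of the alternative NF-kappaB pathway, rose by 1.19 and 0.87 in Wt. Irf5 fell in both, by 0.69 and 0.60 on the log2 scale, Irf8 and Tlr4 fell in Wt by 0.67 and 0.69, and Jun fell in LysM-cKO by 0.62. With the replicate block the inducer list had 7 higher and 6 lower in Wt, and 7 higher and 5 lower in LysM-cKO, and the calls of Irf8, Tlr4 and Jun were then common to both genotypes. The medians of the signalling and inducer lists were -0.17 and -0.02 in Wt, against 0.01 over all genes.

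The comparison of LysM-cKO with Wt cultures asks whether loss of Impdh2 in the myeloid lineage changes the chemokine genes. No gene of the set passed at R40D3, at R0D3 or averaged over both, with edgeR, with edgeR and the replicate block, or with DESeq2. DESeq2 gave an adjusted p to only 13 of the 26 genes at R40D3, 23 at R0D3 and 21 in the average. It could not call the rest. For DESeq2, all genes below means the 9950, 11854 and 11582 genes that were given an adjusted p. At R40D3, 0 of 26 were called, where edgeR called 0.0143% of all genes, edgeR with the block 0.214% and DESeq2 0.191%. With edgeR without the block, 3 of 26 had an unadjusted p under 0.05, where 7.47% of all genes had. At R0D3, 0 of 26 were called, where the same fits called 0.0143%, 0.0214% and 0.0591% of all genes. Without the block, 1 had an unadjusted edgeR p under 0.05, where 4.42% of all genes had. Averaged over R40D3 and R0D3, 0 were called (0.0214%, 0.962% and 0.691% of all genes), and 5 had an unadjusted edgeR p under 0.05 without the block (9.76% of all genes). The 3 comparisons share libraries.

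The 3 smallest p-values at R40D3 were those of Ccl7, Ccl5 and Ccr1, all lower in LysM-cKO. Ccl7 was at 13.3 and 12.03 CPM in Wt R40D3 and at 7.56 and 7.76 CPM in LysM-cKO R40D3, without overlap. This is a log2 fold change of -0.73 (SE 0.19), with an edgeR adjusted p of 0.65, or 0.11 with the replicate block. Ccr1 was at 289 and 402 CPM in Wt R40D3 and at 149 and 275 CPM in LysM-cKO R40D3, also without overlap. Its log2 fold change was -0.70 (SE 0.29, edgeR adjusted p = 0.65), and the osteoclast marker sum stood in the same order (26290 and 38760 CPM against 13190 and 24830 CPM). The part of that difference in the Ccr1 value was not tested. Ccr1 ran from -1.23 to -0.31 as single libraries were left out.

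Ccl5, which attracts T cells and monocytes through Ccr1 and other receptors, had the smallest p at R0D3 and in the average. It was at 2.04 and 1.62 CPM in Wt R0D3 and at 1.78 and 1.04 CPM in Wt R40D3, and at 0.690 and 0.606 CPM in LysM-cKO R0D3 and 0.740 and 0.554 CPM in LysM-cKO R40D3. All 4 LysM-cKO libraries were below all 4 Wt libraries. The averaged log2 fold change was -1.30 (SE 0.30), with an edgeR adjusted p of 0.34, or 0.065 with the replicate block. Ccl8, another CC ligand, was at 1.04 to 3.20 CPM in the 4 Wt libraries and at 0.246 to 1.44 CPM in the 4 LysM-cKO libraries, which overlapped. Its averaged log2 fold change was -1.36 (SE 0.48, edgeR adjusted p = 0.48, or 0.069 with the replicate block). Within replicates, LysM-cKO was lower in all 4 pairs, and the smallest log2(CPM + 0.5) difference was -0.94. Cxcl14, next by p at R0D3, had a value of 0.78 on the log2 scale (SE 0.39, edgeR adjusted p = 1.00), which was 0.06 without LysM-cKO R0D3 replicate 2.

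Whether the change from R0D3 to R40D3 differed between the genotypes was tested as an interaction. With edgeR without the replicate block, 0 of the 26 genes were called and 0 had an unadjusted p under 0.05, where 0.0% and 1.77% of all genes did. With the replicate block edgeR called 0, with 2 at an unadjusted p under 0.05, and DESeq2 called 0, with 0 at that level. Both fits called 0.0% of all genes, and their unadjusted shares over all genes are not given here. The values below are from edgeR without the block. The smallest p-values were those of Ccl7 (-0.59, SE 0.26), Cxcr3 (0.68, SE 0.32) and Cxcl14 (-1.12, SE 0.69), each with an edgeR adjusted p of 1.00. Without LysM-cKO R0D3 replicate 2, Ccl7 was at -0.38 and Cxcl14 at -0.40. So the larger fall of Ccl7 and Cxcl14 in LysM-cKO than in Wt was not shown to be a difference between the genotypes. Of the 3 pathway lists, edgeR called no gene between the genotypes at R40D3, at R0D3 or in the average. In the average 1 of 5, 5 of 37 and 2 of 27 had an unadjusted p under 0.05, where 9.76% of all genes had. With the replicate block, where 0.962% of all genes were called in the average, Mif was called lower in LysM-cKO (-0.27, edgeR adjusted p = 0.049) and the integrin genes Itgam and Itga4 higher (0.31 and 0.30, edgeR adjusted p = 0.042 and 0.044). Itgam was also called by DESeq2 (0.31, adjusted p = 0.029).

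**Figure D3:**
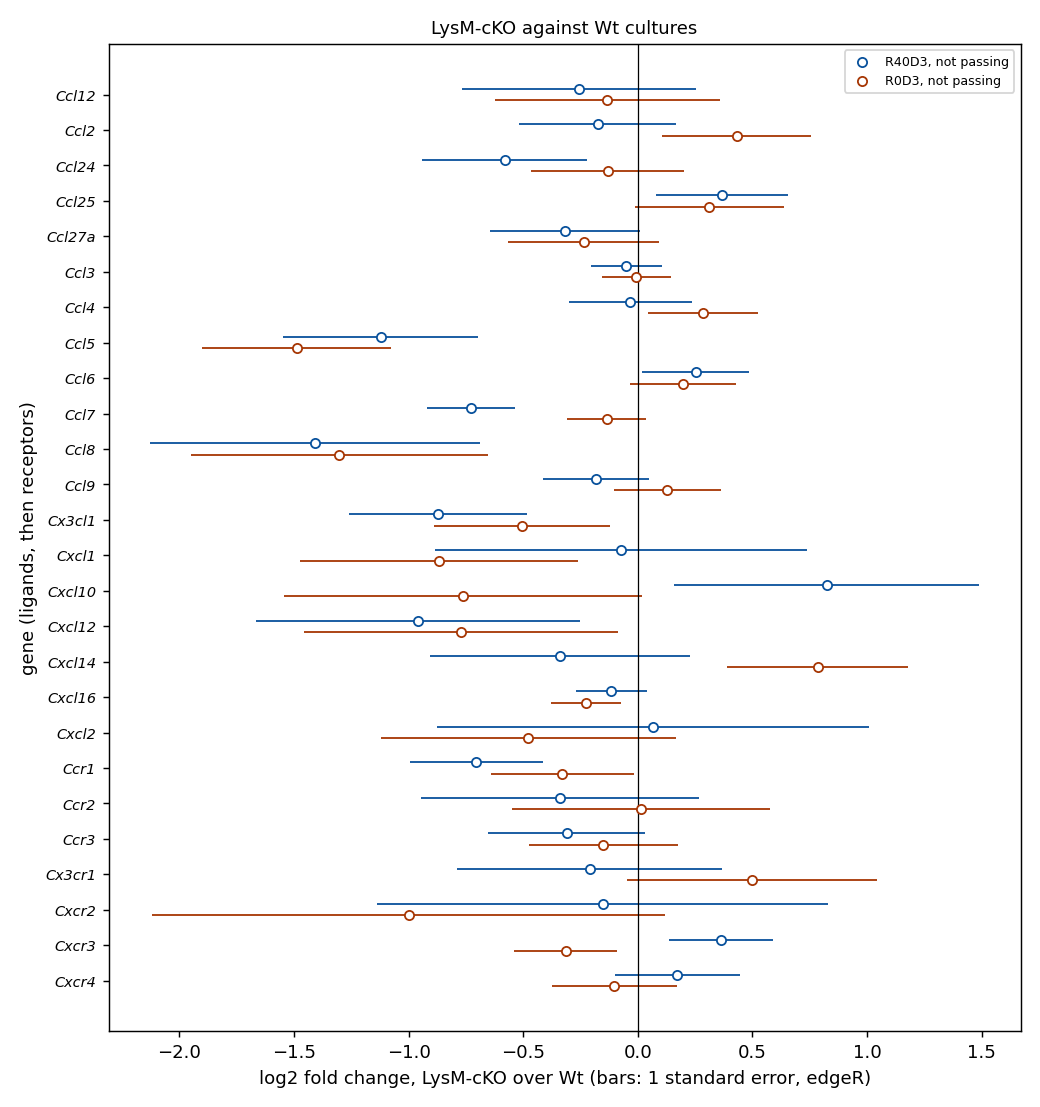
Log2 fold change of LysM-cKO over Wt at R40D3 (blue) and at R0D3 (brown) for each of the 26 tested genes, with bars of 1 standard error from edgeR. All points are open because none reached an adjusted p under 0.05; Ccl5 and Ccl8 lie left of 0 at both.

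In the E12.5 forelimb the set looked different. Here 25 of the 52 genes passed the filter, 19 ligands and 6 receptors, 18 had reads but fell below it, and 9 had none (Ccl5, Ccl8, Ccl20, Ccl22, Ccl26, Ccr3, Ccr6, Ccr8 and Cxcl9). Per kilobase of exon, Cxcl14 led in Wt with 201 CPM per kb, followed by Cxcl12 with 16.8 and Ccl27a with 6.64. Cxcl14 was at 384.5 and 350 CPM in Wt against 476 and 415 CPM in Prx-cKO. Cxcl12, known for guiding progenitors and vessels in the embryo, was at 146 and 129 CPM in Wt against 139 and 166 CPM in Prx-cKO. The Cxcl12 libraries overlapped and those of Cxcl14 did not, and neither gene passed.

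The comparison of Prx-cKO with Wt asks what loss of Impdh2 in limb mesenchyme changes. With edgeR 0 of 25 genes were called, where 0.0% of all 19987 genes were, and 5 of 25 had an unadjusted p under 0.05, where 10.5% of all genes had. The median log2 fold change was 0.45 over the 25 genes and -0.03 over all genes. Of the 25 genes, 7 reached the filter's minimum of 0.21 CPM before TMM scaling in both libraries of Prx-cKO only (Ccl3, Ccl4, Ccl12, Ccl21a, Ccl24, Ccr9 and Cxcl15), and 0 in both libraries of Wt only. These 7 include 4 of the 5 with an unadjusted p under 0.05, so that count and the median over the tested genes support no direction. DESeq2 called 1 of the 13 genes to which it gave an adjusted p, where 2.44% of the 16112 genes given one were called.

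That gene was Cxcr4, with 8.60 and 6.63 CPM in Wt against 14.9 and 15.4 CPM in Prx-cKO. Both Prx-cKO libraries were above both Wt libraries. The log2 fold change was 1.00 (SE 0.24, edgeR adjusted p = 0.41), and with DESeq2 it was 0.98 (adjusted p = 0.034). Over all alternatives the edgeR and DESeq2 adjusted p ran from 0.034 to 1.00. Ackr3, the other Cxcl12 receptor, which scavenges the ligand, was at 40.0 and 41.2 CPM in Wt against 50.6 and 48.8 CPM in Prx-cKO (0.29 on the log2 scale, SE 0.15, edgeR adjusted p = 0.55).

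Ccl4 had 0 counts in both Wt libraries and 8 and 25 counts in the Prx-cKO libraries. Against a floor of 3 counts in each Wt library, this was at least 6.81-fold higher, with an edgeR adjusted p of 0.41. Ccl21a, a ligand of Ccr7 made by lymphatic endothelium, was at 0.496 and 0.181 CPM in Wt against 2.78 and 1.25 CPM in Prx-cKO, without overlap (2.64 on the log2 scale, SE 0.72, edgeR adjusted p = 0.44). Reads of Ccl21a could have been divided among near-identical copies. Ccl24 and Ccl3 were the other 2 genes with an unadjusted p under 0.05, with log2 fold changes of 2.30 (SE 0.75) and 2.04 (SE 0.68), at no more than 0.998 CPM in any library.

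Marker sums of other cell types differed between the groups in both directions. The summed limb macrophage markers, which include Cx3cr1, were 29.3 and 31.8 CPM in Wt against 52.7 and 48.2 CPM in Prx-cKO, while the 8 macrophage markers used for the cultures were 84.5 and 87.5 CPM against 82.2 and 69.4 CPM. The endothelial markers were 118 and 124 CPM against 160 and 165 CPM, and the muscle markers 121 and 116 CPM against 326 and 202 CPM. Osteoclast markers were 60.1 and 65.6 CPM against 49.4 in both, cartilage markers 615 and 658 CPM against 265 and 210.0 CPM, and stromal fibroblast markers 2423 and 2427 CPM against 2217 and 2218 CPM. Forelimb mesenchyme markers were 1300 and 1414 CPM against 996.5 and 1077 CPM, and B cell markers 4.2 and 4.07 CPM against 9.57 and 8.24 CPM. Their part in the values of Cxcr4, Ccl3, Ccl4 and Ccl21a was not tested. T cell markers summed to at most 0.626 CPM, with Cd3e at 0 in both Wt libraries.

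The other genes above 5 CPM in the limb did not pass. Ccl27a was at 17.6 and 14.0 CPM in Wt against 11.4 and 12.6 CPM in Prx-cKO, and its exons overlap those of Il11ra1. Ccl25 was at 13.3 and 11.9 CPM in Wt against 12.4 and 7.48 CPM in Prx-cKO, and its exons overlap those of Elavl1. Cx3cl1, the membrane-tethered chemokine fractalkine, was at 5.95 and 6.95 CPM in Wt against 4.63 and 4.99 CPM in Prx-cKO. Its receptor Cx3cr1, found on macrophages, was at 3.69 and 5.30 CPM in Wt against 4.76 and 6.36 CPM in Prx-cKO. Of these, Ccl27a and Cx3cl1 did not overlap between the groups, and the other pair did. The receptors summed to 15.5 and 15.3 CPM in Wt against 24.9 and 26.2 CPM in Prx-cKO, and Cxcr4 and Cx3cr1 made up most of this sum in every library.

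Several genes that differed between R40D3 and R0D3 cultures were low in the limb. Ccr1 was between 0.626 and 1.23 CPM in the 4 libraries, with overlapping groups. Ccl9 was at 0.780 and 0.752 CPM in Wt against 1.04 and 1.98 CPM in Prx-cKO, and Ccl6 was between 0.417 and 1.08 CPM. Ccl9 was higher in both Prx-cKO libraries but had an edgeR adjusted p of 0.52. Ccl28, an epithelial ligand of Ccr10, was at 1.61 and 1.505 CPM in Wt against 0.244 and 0.803 CPM in Prx-cKO (-1.42 on the log2 scale, SE 0.56, edgeR adjusted p = 0.48). Ccr7, the receptor of Ccl21a, was at 0.921 and 1.03 CPM in Wt against 1.84 and 1.98 CPM in Prx-cKO (0.96 on the log2 scale, SE 0.38, edgeR adjusted p = 0.48). Neither gene overlapped between the groups, and both had an unadjusted p above 0.05. Of the pathway lists, 9 atypical receptors and chemokines, 35 signalling genes and 25 inducers were tested in the limb. There edgeR called 0, with 1, 6 and 2 at an unadjusted p under 0.05, where 10.5% of all genes had one. Mif had 448 and 347 CPM in Wt against 753 and 844 CPM in Prx-cKO (1.01 on the log2 scale, SE 0.19, edgeR adjusted p = 0.37).

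**Figure D4:**
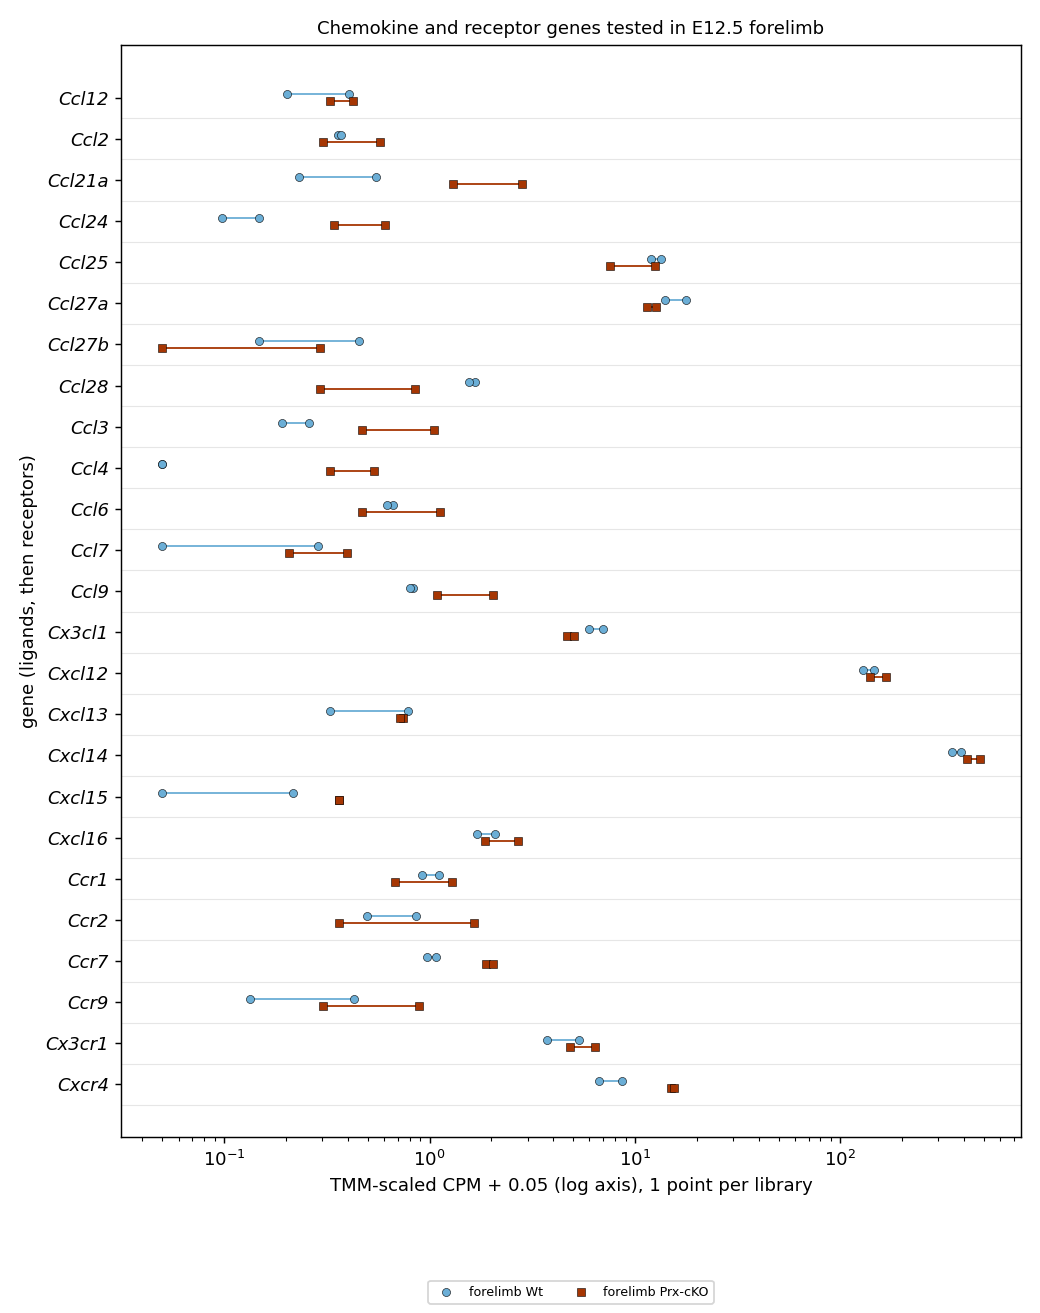
TMM-scaled CPM plus 0.05 on a log axis for the 25 genes tested in E12.5 forelimb, with 1 point for each of the 4 libraries (circles Wt, squares Prx-cKO), so that a library without reads lies at 0.05. Cxcl14 and Cxcl12 stand far right, and the Prx-cKO points of Cxcr4 and Ccl21a lie right of the Wt points.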

How the data were processed

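The authors deposited whole-number counts of reads per Ensembl gene, and these counts were tested as deposited. The submitters' processing notes name FastQC 0.11.2, Trimmomatic 0.36, HISAT2 2.1.0, DESeq2 1.12.4 and GRCm38. Per the labels' protocols RNA was extracted with TRIzol and made into mRNA libraries. The counter, annotation and use of strand are not given in the sources used here, so reads of overlapping exons or near-identical copies are uncertain. Of the set, 1 gene is not reported here and is left out of all counts of its genes, but it stayed in the fits across all genes. The members, lists and tests were chosen with earlier results of these data known.

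Genes kept by filterByExpr were scaled by TMM and tested with the quasi-likelihood test of edgeR 4.0.16 (legacy = FALSE, R 4.3.3), two-sided, with Benjamini-Hochberg adjustment over all genes. The 8 culture libraries were fitted together and the 4 forelimb libraries alone. SE is the absolute log2 fold change over the square root of F. The test was checked on simulated data. Genes are named where called, where called only with the replicate block or by DESeq2 1.42.0, where at 5 CPM or more, as partner of a called gene, and, where none was called, as the 3 smallest p-values. Alternatives were DESeq2 size factors, library size alone, no filter, DESeq2, legacy quasi-likelihood, the replicate block, only the libraries compared, and each library left out.

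In the cultures the replicate numbers paired the samples: in all 6 pairs of groups, deviations from the group mean correlated across genes (r from 0.343 to 0.609), and the second principal component (18.6% of variance) separated the numbers. The pairing comes from the data, since the labels name no shared batch. With 2 libraries per group, precision rests on 1 shared estimate of the spread.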

Additional observations from a re-analysis of the deposited data

How the results depend on the processing

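Of 381 values of single genes under the alternatives, 342 kept their direction and side of the threshold, 30 lost the call, 9 gained one and 0 changed sign. All 30 losses were in R40D3 against R0D3, 12 of 99 values in Wt and 18 of 96 in LysM-cKO. Some of these values are of genes that edgeR without the block did not call. In the other comparisons it called none of the named genes, so no call could be lost there. In Wt, 6 genes were called, and leaving out 1 library gave 2 to 5. In LysM-cKO, 7 were called, and leaving out 1 library gave 4 to 6. The count was 4 with only the 4 LysM-cKO libraries compared, and 4 without both LysM-cKO replicate 2 libraries, a choice made after seeing their low stromal markers. Fewer samples enter these fits, and a lone library is assumed to vary like the other groups. Without single libraries the genotype, averaged and interaction comparisons, and the forelimb, gave 0 called genes each time. In the forelimb DESeq2 called 1 gene, and the cause was not tested. Genes below the filter, 16 in the cultures and 18 in the forelimb, are limited by depth: 3 counts correspond to 0.157 to 0.187 TMM-scaled CPM in the cultures and to 0.0418 to 0.104 in the forelimbs.

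With the replicate block the called genes were 9 in Wt (Cxcr4, Cxcl2 and Cxcl14 added) and 8 in LysM-cKO (Ccl2 added), and 0 in the comparisons of genotypes and in the interaction. In the forelimb the single pair of numbers correlated at r = 0.261. These samples share only a number, and the block again called 0 genes. The block changed no other call of a gene of the set.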

Other observations

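A few genes below the filter or the threshold had 1 library that stood apart, and these were picked after their values were seen. Cxcl9, an interferon-induced ligand of Cxcr3, was at 1.57 CPM in Wt R40D3 replicate 1 and at 0 to 0.264 CPM in the other 7 culture libraries, and Irf7 was at 51.0 CPM in that library and at 15.4 to 24.9 CPM in the others. Cxcl10, another ligand of Cxcr3, was at 5.92 CPM in LysM-cKO R40D3 replicate 1 and at 1.03 to 2.62 CPM in the other 7, and its exons overlap those of Art3. Without Wt R40D3 replicate 2, Cxcl9 was called higher in Wt R40D3 by edgeR, and without LysM-cKO R40D3 replicate 2, Cxcl10 was called higher in LysM-cKO R40D3. Cxcl11, left out as a polymorphic pseudogene, had 2 counts over all culture libraries.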
